A study of Mus musculus with 7 samples.

Results

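Iron storage, uptake, export and sensing are described here through 7 genes, Fth1, Ftl1, Tfrc, Slc40a1, Aco1, Ireb2 and Hmox1, together with Best1, which lies beside Fth1 on chromosome 19. These 8 genes, of 24990 features in the tables, were picked by name, and each matched 1 feature. They were picked with their levels in these libraries already known, so those levels are given as a description. The libraries hold 3′ ends of polyadenylated RNA from mouse R1 embryonic stem cells grown as embryoid bodies, aggregates that begin to form the germ layers, and collected on day 4. The series concerns Meteor, a long non-coding RNA, and Eomes, a transcription factor gene of early mesendoderm.

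Groups follow the library titles. KD is 1 library with a CRISPR knockdown of Meteor, for which the design text names Cas9 and the sample field dCas9, and Ctrl is 1 library of cells with an empty vector. The pInv group is 1 library with the Meteor promoter inverted, pKO is 2 libraries with the Meteor promoter deleted, and WT is 2 libraries without either change. All 7 share the R1 line, serum medium without Lif and removal of feeder fibroblasts on gelatin, and nothing says how many clones or cultures they came from, so the p-values below reflect how far single libraries of a title differ, which may be technical. The genotype field goes against the title in 5 of 7 libraries: it gives WT1 and WT2 the deleted promoter, pKO1 the inverted promoter, and pKO2 and pInv the wild type. No feature carries the name Meteor, so the knockdown, deletion and inversion were not checked against their target here.

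Totals were 1898350 to 2564478 expected counts per library, and levels are given as CPM, counts scaled to a fixed library total with TMM factors. A count of 3, used as the lowest level that could be told from 0, is worth 1.12 to 1.80 CPM. Such floors and the intervals below cover counting error only. The 13 markers of day 4 embryoid bodies summed to 3136 to 4297 CPM, lowest in WT2, where Sox17 had 0 counts. In WT2, 10 of the 13 were lower than in WT1 (median log2 ratio -1.87, 7 lower by 2-fold or more), and T, a mesoderm gene, was at 54.6 CPM against 178 to 358 CPM in the other 6 libraries. In bulk RNA, fewer cells of a type and less RNA per cell cannot be told apart.

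Ferritin is a shell of heavy (Fth1) and light (Ftl1) chains that stores iron. Transferrin receptor (Tfrc) brings iron into the cell, ferroportin (Slc40a1) lets it out, and haem oxygenase 1 (Hmox1) frees iron from haem. The RNA-binding proteins IRP1 (Aco1) and IRP2 (Ireb2) sense iron: when iron is scarce they bind a hairpin, the iron-responsive element, which blocks translation when it sits in the 5′ UTR and protects the RNA when it sits in the 3′ UTR. In this scheme Tfrc RNA is governed by stability, while the ferritin chains are governed largely by translation, which RNA levels do not measure. Best1, named bestrophin 1, is a chloride channel best known from the retinal pigment epithelium and is no part of iron handling.

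The element is what these RNAs share beyond their names, so the copies found by sequence are shown. They were searched in GENCODE M21 transcripts (GRCm38) as CNNNNNCAGTGNNNNNN, on the transcript strand, where the 5 bases before the loop had to pair with the 5 that follow it, G-T pairs included. Such a match was found in the 5′ UTR of 31 of 20597 genes (0.151%) and in the 3′ UTR of 129 of 20979 genes (0.615%). Capitals mark the loop.
Fth1, 5′ UTR, chr19:9982732-9982761, plus strand: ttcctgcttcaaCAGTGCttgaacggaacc
Ftl1, 5′ UTR, chr7:45459778-45459807, minus strand: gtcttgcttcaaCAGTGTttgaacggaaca
Slc40a1, 5′ UTR, chr1:45925464-45925493, minus strand: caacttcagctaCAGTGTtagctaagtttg
Tfrc, 3′ UTR, chr16:32631219-32631248, plus strand: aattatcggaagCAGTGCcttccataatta
Tfrc, 3′ UTR, chr16:32631598-32631627, plus strand: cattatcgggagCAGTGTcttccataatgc
Tfrc, 3′ UTR, chr16:32631663-32631692, plus strand: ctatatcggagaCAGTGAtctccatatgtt
Tfrc, 3′ UTR, chr16:32631710-32631739, plus strand: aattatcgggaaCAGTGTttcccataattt
Fth1, Ftl1 and Slc40a1 each held 1 match and Tfrc held 4. No match with this pairing was found in the UTRs of Aco1, Ireb2, Hmox1 or Best1. Copies of the letters without the pairing were not counted.

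The ferritin genes were the most variable of the iron genes with more than 20 CPM in every library. Fth1 was at 359 CPM in KD, 228 CPM in Ctrl, 157 CPM in pInv, 209 and 167 CPM in pKO1 and pKO2, and 222 and 94.8 CPM in WT1 and WT2. Ftl1 was at 216 CPM in KD, 145 CPM in Ctrl, 77.7 CPM in pInv, 111 and 49.2 CPM in pKO1 and pKO2, and 102 and 33.6 CPM in WT1 and WT2. For both chains KD was the highest library and WT2 the lowest, and the pKO and WT values overlapped. The highest level was 3.79 times the lowest for Fth1 and 6.42 times for Ftl1, whereas the median was 1.74 over the 4682 tested genes that averaged at least 20 CPM. Of those genes, 94.5% spanned no more than Fth1 and 98.0% no more than Ftl1. The span of Fth1 was 2.40 times without KD and 2.29 times without WT2, and that of Ftl1 4.30 and 4.38 times.

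Per unit of length, on the authors' TPM scale, the light chain was the lower of the pair in all 7 libraries. Ftl1 stood at 299 TPM and Fth1 at 503 TPM in KD, a ratio of 0.595, with 0.628 in Ctrl and 0.490 in pInv. The ratio was 0.526 in pKO1 and 0.292 in pKO2, and 0.453 in WT1 and 0.352 in WT2. The second library of each pair thus had the lower ratio. Ftl1 has fractional counts, which the authors' estimate gives where reads are shared between similar sequences, while the Fth1 counts are whole. The Tfrc counts are fractional too.

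**Figure D1:**
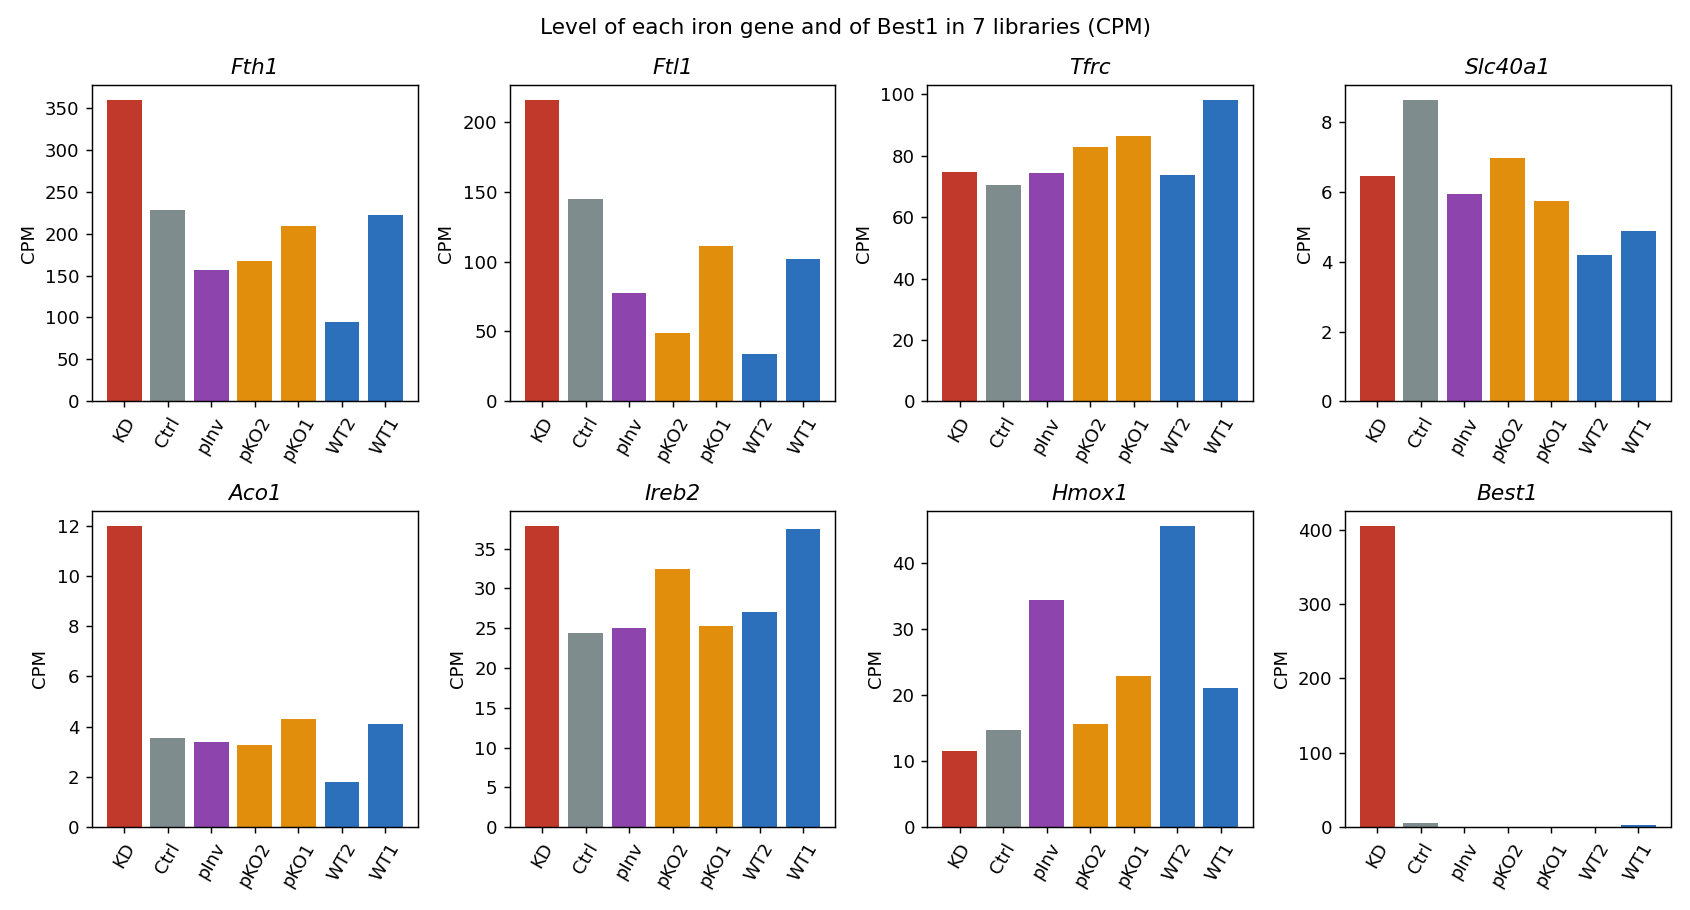
Level of each gene in each library, in CPM on a linear axis from 0, with libraries ordered KD, Ctrl, pInv, pKO2, pKO1, WT2 and WT1 and a separate scale for each gene. Fth1 and Ftl1 are highest in KD (359 and 216 CPM) and lowest in WT2 (94.8 and 33.6 CPM), Tfrc is nearly level (70.6 to 98.2 CPM), Hmox1 is highest in WT2 (45.6 CPM), and Best1 reaches 405 CPM in KD.

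Tfrc varied least. It was at 74.8 CPM in KD, 70.6 CPM in Ctrl, 74.3 CPM in pInv, 86.5 and 82.9 CPM in pKO1 and pKO2, and 98.2 and 73.8 CPM in WT1 and WT2. Its highest level was 1.39 times its lowest, and only 15.1% of the 4682 genes spanned as little. Slc40a1 was low throughout, at 6.46 CPM in KD, 8.63 CPM in Ctrl, 5.94 CPM in pInv, 5.73 and 6.98 CPM in pKO1 and pKO2, and 4.87 and 4.20 CPM in WT1 and WT2. These are 7 to 17 counts per library. For Slc40a1 both pKO libraries (12 and 17 counts) were above both WT libraries (13 and 7 counts) once scaled to CPM. The share of all genes that part this way was not counted, so this order is not read as a difference.

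The 2 sensors differed in level and in range. Ireb2 was at 37.9 CPM in KD, 24.4 CPM in Ctrl, 25.0 CPM in pInv, 25.3 and 32.4 CPM in pKO1 and pKO2, and 37.5 and 27.0 CPM in WT1 and WT2. Aco1 was at 12.01 CPM in KD, 3.55 CPM in Ctrl, 3.39 CPM in pInv, 4.30 and 3.28 CPM in pKO1 and pKO2, and 4.12 and 1.80 CPM in WT1 and WT2. KD held 26 Aco1 counts and every other library 3 to 11. Ireb2 spanned 1.55 times from lowest to highest and Aco1 6.67 times, with 2.39 times for Aco1 without KD and 3.66 times without WT2, whose 3 counts are at the floor.

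Hmox1 was at 11.5 CPM in KD, 14.7 CPM in Ctrl, 34.4 CPM in pInv, 22.9 and 15.6 CPM in pKO1 and pKO2, and 21.0 and 45.6 CPM in WT1 and WT2. WT2, lowest for both ferritin chains, was highest for Hmox1, and KD, highest for both chains, was lowest for Hmox1. In pKO2 all 3 were lower than in pKO1. Its highest level was 3.95 times its lowest, a span that 95.1% of the 4682 genes did not exceed.

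**Figure D2:**
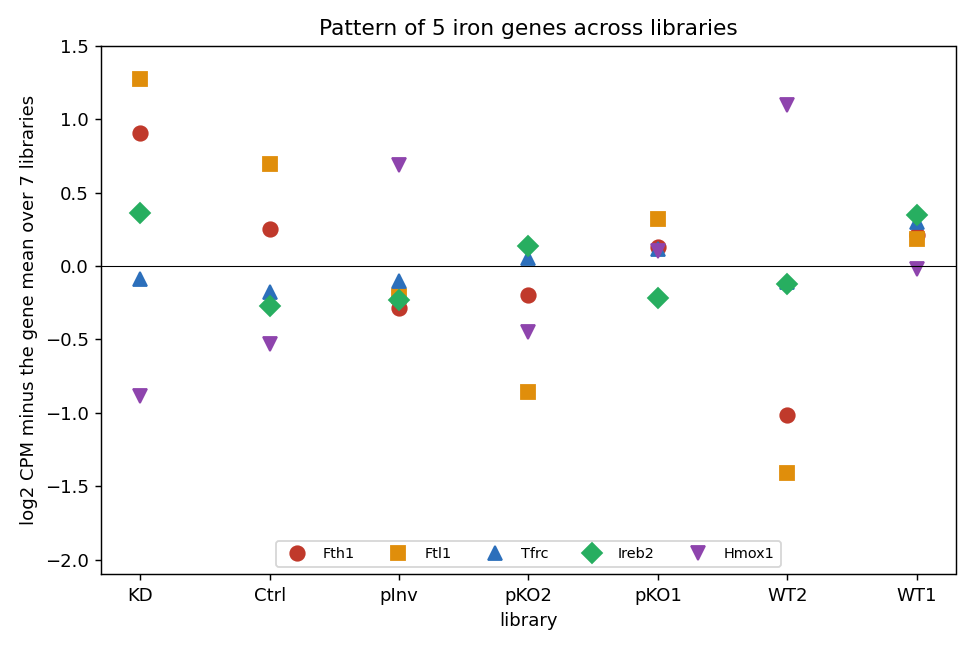
Log2 CPM of 5 iron genes minus each gene's mean over the 7 libraries, 1 point per gene and library. Fth1 and Ftl1 are above their means in KD and below them in WT2, Hmox1 does the opposite, and Tfrc and Ireb2 stay near 0.

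Deleting the Meteor promoter was set against WT to ask which RNAs its loss alters. No iron gene passed. With edgeR's quasi-likelihood test and Benjamini-Hochberg adjustment, 0 of 10265 genes (0%) were called, and 106 (1.03%) had an unadjusted p under 0.05. Fth1 averaged 188 ± 29.6 CPM in pKO and 159 ± 90.1 CPM in WT (SD, n = 2 each), a log2 difference of 0.24 (SE 0.40, adjusted p = 1). Ftl1 averaged 80.3 ± 43.9 CPM in pKO and 67.6 ± 48.1 CPM in WT (log2 difference 0.23, SE 0.55). The SD in WT was larger than the difference of the means for both ferritins, as was the SD in pKO for Ftl1, and without WT2 the difference turned to -0.22 for Fth1 and -0.32 for Ftl1.

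Tfrc averaged 84.7 ± 2.53 CPM in pKO and 86.0 ± 17.2 CPM in WT (log2 difference -0.03, SE 0.28). Slc40a1 averaged 6.35 ± 0.879 CPM in pKO and 4.54 ± 0.475 CPM in WT (0.47, SE 0.53). Among the sensors, the log2 difference was 0.28 (SE 0.69) for Aco1 and -0.17 (SE 0.35) for Ireb2. Hmox1 averaged 19.3 ± 5.19 CPM in pKO and 33.3 ± 17.4 CPM in WT, a log2 difference of -0.77 (SE 0.46), the largest of the 7 iron genes. Without WT2 it was -0.11, and that of Slc40a1, 0.41, was the largest. The adjusted p in the fit of all 7 libraries was 1 for all of them. Best1 had 0 counts in both pKO libraries and 6 and 0 counts in WT1 and WT2, so no fold is given. All 8 genes passed the filter on low counts, which took in all 7 libraries, KD and Ctrl included. KD held 26 Aco1 counts, against 3 to 11 in the others, and 878 Best1 counts. For Aco1 and Best1, passing thus need not rest on the pKO and WT libraries.

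Inverting the promoter was set against WT and against the deletion. In pInv against WT, 0 of 10265 genes (0%) were called by edgeR and 152 (1.48%) had an unadjusted p under 0.05. In pInv against pKO these were 0 (0%) and 153 (1.49%). Neither comparison called an iron gene, and both rest on 1 pInv library, which is assumed to vary like the others. Against WT, the log2 difference was -0.02 for Fth1, 0.18 for Ftl1, -0.22 for Tfrc, 0.37 for Slc40a1, 0.13 for Aco1, -0.37 for Ireb2 and 0.06 for Hmox1. Against pKO it was largest for Hmox1, at 0.84 (SE 0.54, adjusted p = 1), and between -0.26 and -0.04 for the other 6 genes. These comparisons share the pInv, pKO and WT libraries.

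**Figure D3:**
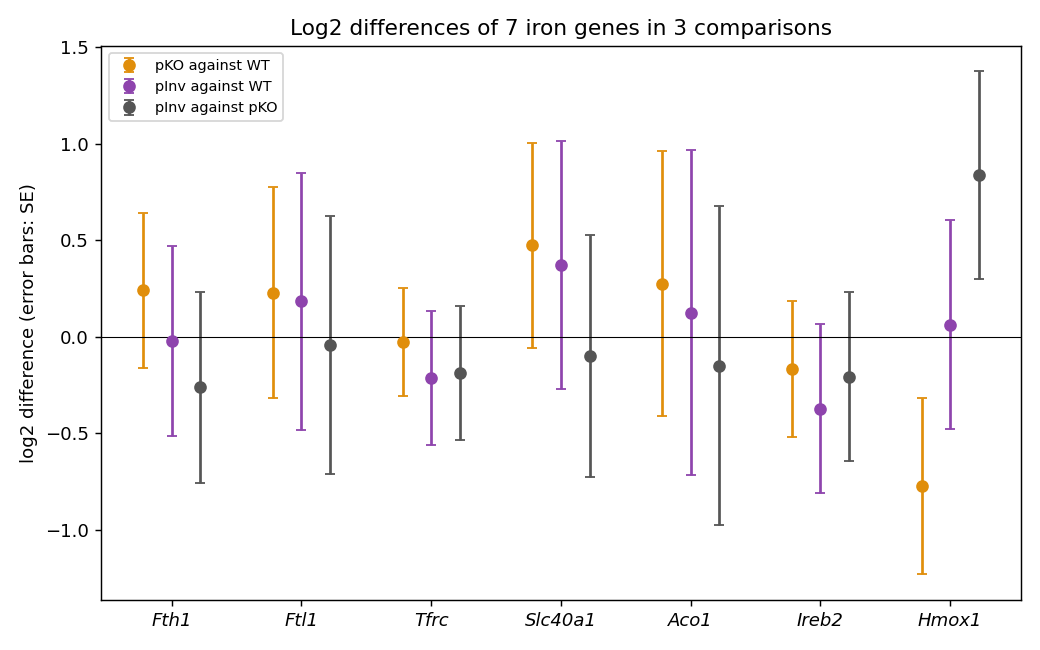
Log2 differences of 7 iron genes from the edgeR fit in pKO against WT, pInv against WT and pInv against pKO, with bars of 1 SE. Most bars cross 0, and the exceptions are Hmox1 in pKO against WT (-0.77) and in pInv against pKO (0.84), where the adjusted p was 1.

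The knockdown was set against its empty-vector control, with 1 library each, so there is no replicate check. Genes were called by size, at a 2-fold difference or more with 20 CPM or more in either library, which took 255 of 5083 genes (5.02%), 200 higher (3.93%) and 55 lower (1.08%). Of the 5 genes described here that reached 20 CPM, 1 was called, Best1. Fth1 was 1.58 times higher in KD than in Ctrl (exact 95% interval 1.40 to 1.77) and Ftl1 1.49 times higher (1.28 to 1.73). Ireb2 was 1.55 times higher (1.08 to 2.27). The ratio of Tfrc was 1.06 (0.840 to 1.34), of Hmox1 0.784 (0.440 to 1.39) and of Slc40a1 0.749 (0.342 to 1.61), all 3 with intervals that include 1. Aco1 had a ratio of 3.38 (1.43 to 9.22) from 26 and 7 counts, but stayed under 20 CPM in both libraries.

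The libraries that share a title were compared by the same rule. In WT2 against WT1, 832 of 5157 genes (16.1%) passed, 284 higher (5.51%) and 548 lower (10.6%). Of the 5 genes at 20 CPM, 3 passed: Fth1 at 0.427 times (0.356 to 0.509) and Ftl1 at 0.331 times (0.244 to 0.443) were lower in WT2, and Hmox1 at 2.17 times (1.52 to 3.13) was higher. In pKO2 against pKO1, 255 of 5016 genes (5.08%) passed, 53 higher (1.06%) and 202 lower (4.03%), and of the 5 genes here only Ftl1 did, at 0.442 times (0.352 to 0.554). Fth1 was at 0.800 times (0.697 to 0.918) in pKO2 and Tfrc at 0.959 times (0.780 to 1.18). For both ferritins the step between the WT libraries was thus larger than that between KD and Ctrl, and Tfrc differed by less than either ferritin in all 3 pairs. For Ireb2 and Aco1 the ratio was farther from 1 in KD against Ctrl than in these pairs, with wide intervals: Ireb2 was at 0.721 times (0.495 to 1.03) in WT2 against WT1 and Aco1 at 0.437 times (0.0782 to 1.65).

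Against each of the other libraries, KD also had more ferritin RNA. The Fth1 ratio was 2.29 to pInv (2.02 to 2.60), 1.72 to pKO1 (1.53 to 1.93), 2.15 to pKO2 (1.90 to 2.42), 1.62 to WT1 (1.45 to 1.80) and 3.79 to WT2 (3.19 to 4.52). The Ftl1 ratio was 2.78 to pInv (2.34 to 3.31), 1.94 to pKO1 (1.65 to 2.28), 4.38 to pKO2 (3.58 to 5.40), 2.12 to WT1 (1.82 to 2.47) and 6.42 to WT2 (4.85 to 8.62). No interval reached 1. These ratios share the KD library.

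Best1 stood apart from the iron genes. It had 878 counts (405 CPM) in KD, 11 counts (5.58 CPM) in Ctrl, 6 counts (2.25 CPM) in WT1, and 0 counts in pInv, pKO1, pKO2 and WT2. The ratio of KD to Ctrl was 72.6 (40.4 to 146). On the authors' TPM scale Best1 reached 406 TPM in KD, beside 503 TPM for Fth1 in the same library. TPM divides by length although reads of these libraries come from 3′ ends, and in CPM the order turns, with Best1 at 405 and Fth1 at 359 CPM. Its relatives Best2 and Best3 had 0 counts in KD.

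The gene end of Best1 faces that of Fth1. In the GENCODE annotation Best1 lies on the minus strand and Fth1 on the plus strand, and 75 bases separate their ends. The lengths the authors deposited are longer than the annotated transcripts by close to 2000 bases in 12078 of 16876 compared transcripts (71.6%, within 100 bases), for Best1 by 2002 bases and for the Fth1 messenger RNA by 2013. If those bases lie beyond the gene's end, 1925 of the 2000 beyond Best1 lie within the Fth1 gene on the other strand. That gene spans 4501 bases, introns included, and the overlap with its exons alone was not counted. The strand setting of the authors' counting is unknown, and so is the way reads from such an overlap were assigned. The deposited Best1 counts are whole in every library, as are those of Fth1, whereas those of Ftl1 are fractional. In pInv, pKO1, pKO2 and WT2, Best1 had 0 counts and Fth1 had 370, 438, 408 and 158. The part of shared reads in the Best1 counts was not tested.

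Ftl1 has a neighbour with the same arrangement. Gys1, muscle glycogen synthase, ends 1324 bases from the end of Ftl1 on the opposite strand. That leaves 676 bases of the Ftl1 gene, introns included, in the same 2000. Gys1 was at 122 CPM in KD, 19.3 CPM in Ctrl, 17.8 CPM in pInv, 13.9 and 18.5 CPM in pKO1 and pKO2, and 13.9 and 16.8 CPM in WT1 and WT2. KD was thus 6.34 times Ctrl (4.50 to 9.16), and no other library exceeded 20 CPM. Beside Aco1, the RNA sensor gene Ddx58 was at 18.9 CPM in KD, against 1.52 CPM in Ctrl and 1.64 to 6.60 CPM in the other 5 libraries. Rab3il1, on the other side of Best1, was at 6.93 CPM in KD (15 counts), against 0.508 CPM in Ctrl (1 count), a ratio of 13.6 (2.10 to 574), and 0.424 to 1.20 CPM in the other 5 libraries. Tnk2 beside Tfrc was at 6.46 CPM in KD and Hykk beside Ireb2 at 7.39 CPM, within the 6.002 to 9.74 CPM and 5.74 to 13.2 CPM of the other 6 libraries. Bax, on the other side of Ftl1, was at 11.5 CPM in KD, within 7.12 to 18.2 CPM, and Mcm5 beside Hmox1 was lowest in KD, at 160 CPM against 172 to 298 CPM.

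**Figure D4:**
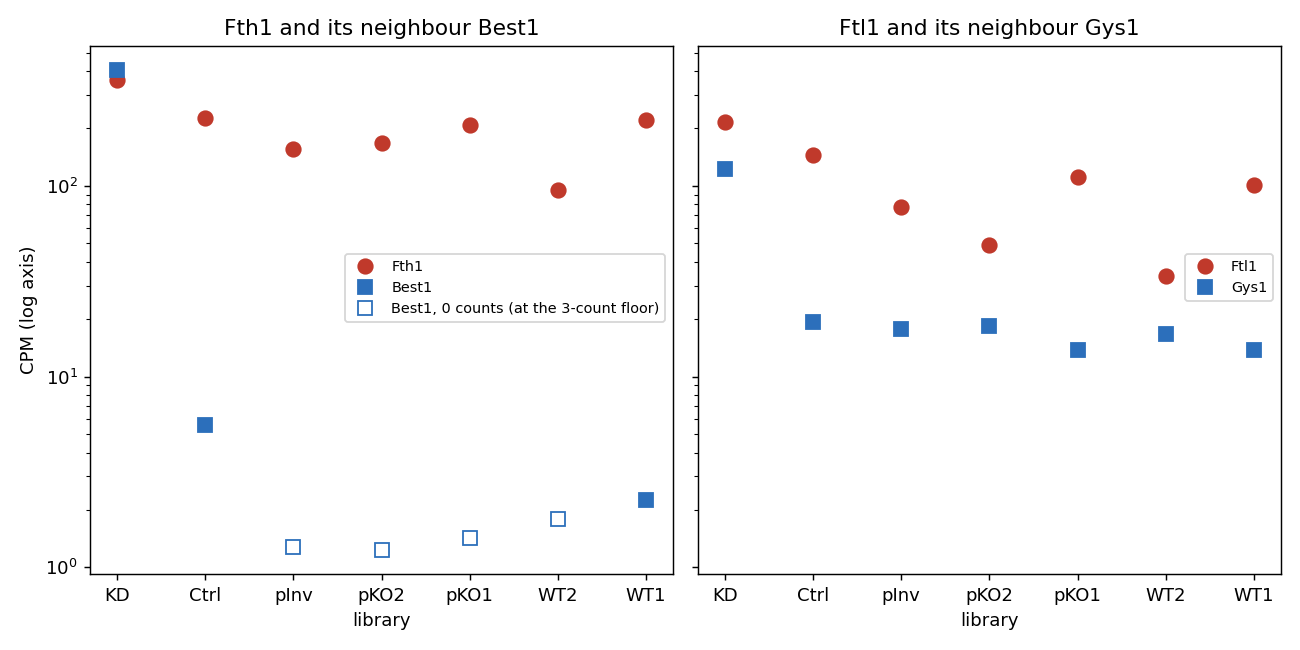
CPM on a log axis of Fth1 with Best1 and of Ftl1 with Gys1 in the 7 libraries, where open squares mark 0 counts and are drawn at the level of 3 counts. Both neighbours are high in KD (405 and 122 CPM), and Gys1 stays between 13.9 and 19.3 CPM elsewhere while the ferritins vary.

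Best1 was 1 of 22 genes (0.462% of 4767) that were 10-fold or more above the highest other library in KD, a set formed after the values were seen. pKO2 had 2 such genes (0.0436%) and the remaining 5 libraries 0. Beside Best1 these were Lyz2, Cdh23, Abat, Iffo1, Gpnmb, Ctss, Adam8, Ccdc152, Lrsam1, Mpeg1, Grtp1, Mir1934, Slfn5, Rmc1, Adgre1, Rdh5, Spsb2, Maf, Pik3ap1, Lgmn and Slc7a11. Of the 22, 10 (45.5%) have a protein-coding gene on the opposite strand whose end overlaps or lies within 2000 bases of theirs, against 1081 of 4575 genes (23.6%) at 20 CPM or more in KD. Of these 10 opposite genes, Fth1 among them, 5 were higher in KD than in every other library, 1 (Gapdh) was lower and 4 were within the range of the others. Shares of all genes at these positions were not counted, so the 5 are not read as an excess. The end of Cdh23 lies 150 bases from that of Psap, a lysosomal gene, and Cdh23 was at 113 CPM in KD, against 2.54 CPM in Ctrl, while Psap was at 175 CPM in KD and 88.8 CPM in Ctrl.

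Of 12 macrophage markers, 8 were higher in KD than in every other library. The share of all genes that were highest in KD was not counted, so the 8 are not read as an excess. The summed level of the 12 markers was 328 CPM in KD and 69.7 to 133 CPM in the other 6 libraries, where C1qc alone gave 67.8 to 131 CPM. Lyz2 was at 175 CPM in KD, Adgre1 at 28.6 CPM, Cd14 at 18.5 CPM and Csf1r at 12.5 CPM, and the last 3 had 0 counts in all the others. Ptprc, C1qa and Fcer1g, which also define macrophages, had 0 counts in KD. The part of macrophage RNA in the KD levels of Fth1, Ftl1, Aco1 and Best1 was not tested. Erythroid markers summed to 3.69 CPM in KD and 1.23 to 7.64 CPM in the others, and feeder fibroblast markers to 22.2 CPM in KD and 17.8 to 31.2 CPM in the others, so KD was within the range of the others for both. Visceral endoderm markers summed to 306 CPM in KD, of which Apoe, also a macrophage gene, was 253 CPM, and to 84.0 to 106 CPM elsewhere.

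Hmox1 lies on chromosome 8, and so did the 5 genes most like it in pattern over the 7 libraries: Kcnk1, Rnf170, Bag4, Leprotl1 and D8Ertd738e. Likeness is the root mean square difference of log2 CPM after each gene is centred on its mean, which was 0.18 for Kcnk1 and 0.22 for D8Ertd738e, against a median of 0.65 over 4681 genes. The median of 251 chromosome 8 genes, as log2 level relative to their means, was -0.17 in KD, -0.21 in Ctrl, 0.33 in pInv, -0.16 in pKO2, 0.01 in pKO1, 0.29 in WT2 and -0.14 in WT1. The 2 libraries with the most Hmox1, WT2 and pInv, were thus those with the highest chromosome 8 median. Of the chromosome 8 genes 66.1% were above their means in both WT2 and pInv, compared with 19.2% of 4304 genes elsewhere. On chromosome 11 the median was 0.33 in WT2, and over the other 18 chromosomes medians lay between -0.14 and 0.15.

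Once the chromosome 8 median was subtracted, Hmox1 was still highest in WT2, at 0.74, with 0.30 in pInv, 0.10 in pKO1 and WT1, -0.29 in pKO2, -0.32 in Ctrl and -0.64 in KD. The log2 difference in pInv against WT changed to -0.20, and that in pInv against pKO to 0.42. In WT2 against WT1 the log2 ratio of Hmox1 was 0.61 on this scale and 1.09 without it, so it no longer reached 2-fold. This correction and the list of genes like Hmox1 were added after the values were seen. Mcm5, the neighbour of Hmox1, was at 246 CPM in WT2 and 298 CPM in pInv, and at 160 to 201 CPM in the other 5 libraries.

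**Figure D5:**
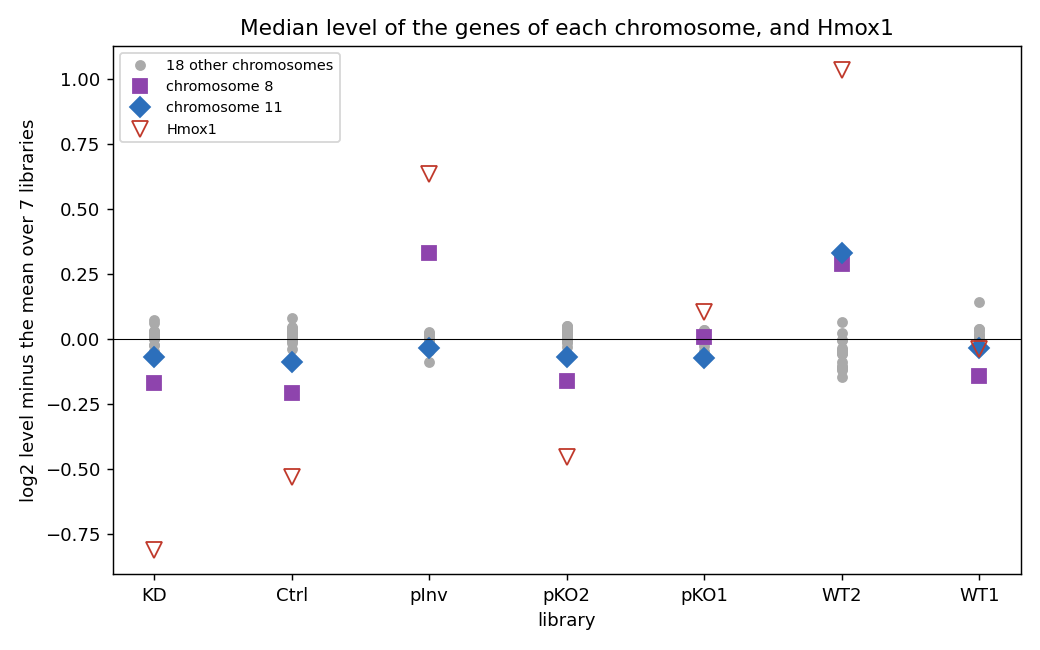
Median log2 level of the genes of each chromosome relative to their means over the 7 libraries, 1 point per chromosome and library, with Hmox1 as open triangles. Chromosome 8 is high in pInv (0.33) and WT2 (0.29), chromosome 11 in WT2 (0.33), and Hmox1 is highest in the same 2 libraries.

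The genes most like each ferritin were not iron genes. For Fth1 they were Prtg, a merged feature of Mir8114 and Glul, Itm2b, Maged1 and Ssbp3, with root mean square differences of 0.14 to 0.17 against a median of 0.61. For Ftl1 they were 1700037H04Rik, Tdgf1, U2af1, Nup153 and Fgf8, at 0.26 to 0.31 against 0.88. Ftl1 ranked 401 from Fth1 and Fth1 ranked 20 from Ftl1, both at 0.37, while Hmox1 ranked 4656 from Fth1. For Tfrc the closest were a merged feature of Mir6904 and Parp1, Dnaaf2, Stag1, Trap1 and Washc2, at 0.07 to 0.09 against 0.30.

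The promoters of the ferritin chains are shown because both RNAs were highest in KD and lowest in WT2. Whether these sequences bear on the levels was not tested. Each is the 250 bases before a RefSeq start (GRCm38.p6), and capitals mark CCAAT or its reverse complement.
Fth1, chr19:9982396-9982645, plus strand: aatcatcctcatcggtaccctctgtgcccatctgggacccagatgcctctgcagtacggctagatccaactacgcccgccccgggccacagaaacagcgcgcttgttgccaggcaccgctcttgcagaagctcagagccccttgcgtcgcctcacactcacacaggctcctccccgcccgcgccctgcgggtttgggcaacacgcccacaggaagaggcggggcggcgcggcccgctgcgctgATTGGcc
Ftl1, chr7:45459887-45460136, minus strand: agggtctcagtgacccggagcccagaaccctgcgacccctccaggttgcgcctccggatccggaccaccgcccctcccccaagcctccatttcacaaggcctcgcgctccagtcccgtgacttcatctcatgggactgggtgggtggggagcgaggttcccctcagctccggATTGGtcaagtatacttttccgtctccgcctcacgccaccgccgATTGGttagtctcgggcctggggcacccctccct
Both hold it as the reverse complement, ATTGG, and 33.8% of 32851 promoter windows hold the motif on either strand. Searched alongside on both strands, TATAA was in 22.8% of windows and the antioxidant motif TGACNNNGC in 10.2%, and neither was found in these 2 windows. A second Fth1 window, at another RefSeq start, holds TATAA and no CCAAT, and Tfrc and Best1 also have a window with CCAAT. Slc40a1 and Hmox1 are named only.

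The iron storage list holds Fth1, Ftl1, Ftmt, Ncoa4, Pcbp1 and Pcbp2, of which 5 were tested. Its medians, 0.57 in KD against Ctrl, -1.22 in WT2 against WT1 and -0.32 in pKO2 against pKO1, are values of the ferritins themselves. Those over all tested genes were 0.01, -0.02 and 0.00. The other 3 tested genes, Ncoa4, Pcbp1 and Pcbp2, were each higher in KD than in Ctrl and lower in WT2 than in WT1 and in pKO2 than in pKO1. Ncoa4, the receptor that carries ferritin to the lysosome, was at 24.5 CPM in KD, 13.2 CPM in Ctrl, 16.1 CPM in pInv, 14.3 and 5.33 CPM in pKO1 and pKO2, and 19.9 and 3.001 CPM in WT1 and WT2. It had the same order within each pair as Ftl1. The iron chaperones Pcbp1 and Pcbp2 were 1.19 (1.08 to 1.32) and 1.27 times higher (1.15 to 1.39) in KD than in Ctrl. Ftmt, mitochondrial ferritin, had 0 counts throughout.

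Iron uptake genes showed no common direction. Of 11 genes 6 were tested, 3 higher and 3 lower in KD than in Ctrl (median -0.01) and 3 higher and 3 lower in pKO than in WT (0.25), none called. Slc11a2, the ferrous iron transporter DMT1, was at 31.4 CPM in KD and 35.5 CPM in Ctrl (ratio 0.884, 0.623 to 1.25). Its relative Slc11a1, the transporter of macrophage phagosomes, was at 15.7 CPM in KD, against 5.08 CPM in Ctrl and 2.87 to 6.37 CPM in the other 5 libraries. Transferrin (Trf) and Tfr2 were too low to test. Of 4 export genes only Slc40a1 was tested.

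Of 10 sensing and control genes 6 were tested, 4 higher and 2 lower in KD than in Ctrl (median 0.10) and 3 each way in pKO against WT (-0.06). Fbxl5, the iron-dependent ligase that marks IRP2 for destruction, was at 17.1 CPM in KD and 16.2 CPM in Ctrl, and Neo1 was called lower in WT2 (3.60 CPM) than in WT1 (22.1 CPM). Of 8 genes of haem breakdown and transport 7 were tested, 2 higher and 5 lower in KD than in Ctrl (-0.33) and 2 higher and 5 lower in pKO than in WT (-0.17). Hmox2, the constitutive haem oxygenase, was at 21.7 CPM in KD and 16.2 CPM in Ctrl. Haem synthesis had 10 of 13 genes tested, 6 higher and 4 lower in both of these comparisons (0.09 and 0.13), and iron-sulfur cluster assembly 20 of 23, 14 higher and 6 lower in KD than in Ctrl (0.05) and 6 higher and 14 lower in pKO than in WT (-0.21).

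Of 6 further genes whose RNAs are known to carry an iron-responsive element 4 were tested, all 4 lower in KD than in Ctrl (median -0.38) and 1 higher and 3 lower in pKO than in WT (-0.18). None was called in either comparison. Of 21 targets and regulators of NRF2, the factor that turns on ferritin and Hmox1 under oxidative stress, 19 were tested, 9 higher and 10 lower in KD than in Ctrl (-0.04) and 9 higher and 10 lower in pKO than in WT (-0.02). Prdx1, a peroxidase, was at 1541 CPM in KD, 980 CPM in Ctrl, 1508 CPM in pInv, 1491 and 620 CPM in pKO1 and pKO2, and 1410 and 278 CPM in WT1 and WT2. Slc7a11 was the 1 gene of this list called in KD, at 20.3 CPM (44 counts) against 1.52 CPM in Ctrl (3 counts), a ratio of 13.3 (4.28 to 67.2). Of 8 ferroptosis defence genes 6 were tested, 2 higher and 4 lower in KD than in Ctrl (-0.22), with Slc7a11 called higher and Acsl4, an enzyme that loads membranes with oxidisable lipids, called lower, at 17.5 CPM in KD against 36.0 CPM in Ctrl (ratio 0.487, 0.319 to 0.732). The ratio of Gpx4, which repairs such lipids, was 0.881 (0.767 to 1.01).

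Gene groups outside the iron lists were read as a comparison. The 8 translation elongation factors had 7 tested, with a median of -0.04 in KD against Ctrl and -0.17 in pKO against WT. In WT2 against WT1 and in pKO2 against pKO1, 4 of the 7 were higher and 3 lower (medians 0.05 and 0.01). Eef1a1 shared the pair order of the ferritins, at 887 CPM in WT2 against 4621 CPM in WT1 and at 1663 CPM in pKO2 against 5370 CPM in pKO1. Eef2 had the opposite order, at 3928 CPM in WT2 against 2429 CPM in WT1 and at 2825 CPM in pKO2 against 2229 CPM in pKO1. The 30 hypoxia and glycolysis genes had 27 tested, 13 higher and 14 lower in KD than in Ctrl (median -0.06). In pKO against WT 3 were higher and 24 lower (-0.43), none called, beside 5151 lower of all 10265 tested genes. In pInv against WT 2 were higher and 25 lower (-0.42), beside 5214 lower of all 10265. The last 2 comparisons share the WT libraries.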

How the data were processed

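For each library the authors deposited RSEM estimates: expected counts without normalization, TPM and FPKM, per the file headers. The submitters' processing notes name RSEM, without a version, and mm9. TPM values, scaled by the authors to length and a fixed total, were used only to set genes side by side, and the deposited FPKM not at all. The sources used here do not give trimming, strand setting or duplicate handling. Libraries were QuantSeq 3′ libraries, per the labels' protocols. Names came from a RefSeq table of GRCm38, which named 23447 of 24990 features as single genes and left 26 unnamed. All coordinates are GRCm38 positions of annotated sequences. The most abundant feature, with no name in that table, took from 12.9% of a library in pInv to 24.1% in WT2, which also had the lowest total.

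Expected counts were rounded and fitted with edgeR 4.0.16 in R 4.3.3, after filterByExpr by group and TMM scaling, using 1 quasi-likelihood model of all 7 libraries with 1 term for each group. Residual degrees of freedom were 2, from pKO and WT, beside a prior of 5.86, with a biological coefficient of variation of 0.294. Adjusted p under 0.05 was called. Log2 ratios of single libraries used a prior count of 2, and intervals are exact binomial at 95%. As a check of the code only, the fit and the intervals were run on simulated data with no library set apart like WT2. Members, gene lists and the rule for named genes (all members, the 4 most abundant other genes of each list and any called, the 5 most alike, the neighbours) were chosen with earlier results of these data known; the text gives some of these genes only by count. DESeq2 1.42.0, other scaling and filters, left-out libraries and the genotype field served as alternatives.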

Additional observations from a re-analysis of the deposited data

How the results depend on the processing

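With DESeq2, RLE size factors or the most abundant feature left out, the log2 differences of the 7 iron genes kept their direction and 0 genes were called in pKO against WT, pInv against WT and pInv against pKO. The size rule took 255 genes with RLE factors and 341 without the most abundant feature in KD against Ctrl, 831 and 1001 in WT2 against WT1, and 247 and 302 in pKO2 against pKO1. Counts of called genes, 0 in all 3 comparisons of the edgeR fit, moved without a filter to 9 in pKO against WT, 6 in pInv against WT and 8 in pInv against pKO, of 16702 genes, and with groups by the genotype field to 7 in pInv against WT; none of the 7 iron genes was among them. At a minimum of 5 CPM the size rule took 1131 genes in KD against Ctrl, 1856 in WT2 against WT1 and 765 in pKO2 against pKO1. Leaving out a library gave 0 to 7 calls in pKO against WT, where 4 came without pKO1 and 7 without pKO2, and 0 to 7 in pInv against pKO, with 2 and 7 calls without the same libraries.

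Grouping by the genotype field turned 16 directions of the iron genes. In pKO against WT the log2 difference became -0.028 for Fth1, 0.13 for Tfrc, -0.49 for Slc40a1, -0.10 for Aco1, 0.17 for Ireb2 and 0.40 for Hmox1. In pInv against WT it became 0.37 for Fth1, 0.14 for Tfrc, -0.17 for Slc40a1 and -0.12 for Hmox1, and in pInv against pKO 0.39 for Fth1, 0.70 for Ftl1, 0.0043 for Tfrc, 0.32 for Slc40a1, 0.46 for Aco1 and -0.52 for Hmox1. Without a filter, Tfrc in pKO against WT became 0.00081. Relative to the chromosome 8 median, an alternative chosen after seeing the data, Hmox1 in pInv against WT became -0.20.

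With a library left out, log2 differences in pKO against WT ran from -0.22 to 0.99 for Fth1, -0.46 to 1.25 for Ftl1, -0.19 to 0.20 for Tfrc, -0.11 to 1.04 for Aco1 and -0.35 to 0.10 for Ireb2. In pInv against WT they ran from -0.50 to 0.73 for Fth1, -0.39 to 1.21 for Ftl1, -0.41 to 0.0071 for Tfrc, -0.28 to 0.89 for Aco1 and -0.41 to 0.71 for Hmox1, and in pInv against pKO from -0.52 to 0.63 for Ftl1, -0.25 to 0.047 for Slc40a1 and -0.34 to 0.023 for Aco1. A lone library left in a group is assumed to vary like the others. The cause of these changes was not tested.

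The replicate block, with the title number as block in pKO and WT, called 0 of 8885 genes, and gave 0.36 for Fth1 and -0.70 for Hmox1. The numbers are not said to mark a shared culture, and the deviations of the same-numbered libraries correlated at 0.308 over 10265 genes in a design with only 2 pairs. Depth limits Slc40a1 and Aco1 most, at 3 to 26 counts per library.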
